A study of Arabidopsis thaliana with 4 samples.

Results

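The report covers the 9 beta-tubulin genes of Arabidopsis thaliana, TUB1 to TUB9, taken by locus code from 27416 gene models with a deposited expression value; all 9 were present and all 9 passed the filter on low values. The values come from 4 poly(A) RNA-seq libraries of whole Col-0 seedlings, all in a cry1 mutant background without the blue-light receptor cryptochrome 1. The 2 CNT1 libraries came from seedlings with the transgene 35S::CNT1-NLS-YFP, in which the viral 35S promoter, active in most plant tissues, drives the photolyase homology region at the N terminus of CRY1 tagged for import into the nucleus (NLS) and with yellow fluorescent protein (YFP). The 2 CNT1-G283E libraries came from seedlings with 35S::CNT1-G283E-NLS-YFP, the same fusion with 1 amino acid substituted. Both groups had 3 days of cold, then 12 h of white light, then 4 days under blue light of 15 μmol/m2/s, a growth time of 4.5 days. The labels do not say whether each genotype is 1 transgenic line, so the groups cannot be told apart from the insertion or level of their transgenes. They also do not say whether replicates are separate cultures, so the p-values reflect only a spread between samples that may be technical.

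Microtubules are hollow filaments built from dimers of alpha-tubulin and beta-tubulin. In growing plant cells they lie under the plasma membrane and guide the enzymes that lay down cellulose, and in dividing cells they form the preprophase band, the spindle and the phragmoplast. Plants carry several beta-tubulin genes whose proteins are much alike and differ most at the acidic C-terminal tail, which faces outward from the microtubule. TUB1 is known as a gene whose transcript falls when dark-grown seedlings are moved to light, and TUB9 has been described in pollen.

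The coding ends are shown because they carry the tail by which the isotypes differ. The lines give the last 60 coding bases before the stop codon, 5′ to 3′, read from the RefSeq TAIR10.1 genome, with in-frame GAA and GAG codons, which encode glutamate, in capitals.
TUB1: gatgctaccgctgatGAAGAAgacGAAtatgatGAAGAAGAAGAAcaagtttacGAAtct
TUB2: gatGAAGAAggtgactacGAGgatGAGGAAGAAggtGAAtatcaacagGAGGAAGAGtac
TUB3: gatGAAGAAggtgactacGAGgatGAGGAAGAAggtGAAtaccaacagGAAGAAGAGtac
TUB4: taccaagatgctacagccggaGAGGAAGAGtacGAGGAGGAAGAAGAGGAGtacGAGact
TUB5: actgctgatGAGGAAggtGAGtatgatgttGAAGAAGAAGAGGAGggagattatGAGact
TUB6: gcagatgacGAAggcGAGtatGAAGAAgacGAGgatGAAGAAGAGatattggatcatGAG
TUB7: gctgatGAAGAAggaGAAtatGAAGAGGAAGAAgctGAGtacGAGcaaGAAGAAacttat
TUB8: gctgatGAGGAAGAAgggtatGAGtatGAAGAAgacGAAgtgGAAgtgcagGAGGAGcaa
TUB9: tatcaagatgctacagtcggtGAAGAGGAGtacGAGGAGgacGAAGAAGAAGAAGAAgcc
The stretches hold from 8 such codons in TUB1 to 11 in TUB7. Counted by position from the stop codon, without alignment, TUB2 and TUB3 differed at 2 of these 60 bases and TUB4 and TUB9 at 13. The other pairs differed at 20 to 35, a count that insertions or deletions between genes can raise.

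The 9 genes lie on 4 of the chromosomes, and TUB2 and TUB3 are neighbours. TUB2 (AT5G62690) spans chr5:25181296-25183811 and TUB3 (AT5G62700) chr5:25184258-25186777, both on the plus strand with 446 bases between them. The other chromosome 5 genes are TUB4 (AT5G44340, chr5:17859136-17861150, minus strand), TUB6 (AT5G12250, chr5:3960938-3963624, minus strand) and TUB8 (AT5G23860, chr5:8042853-8044934, plus strand). TUB1 (AT1G75780, chr1:28451138-28453820) and TUB5 (AT1G20010, chr1:6937719-6940832) are on the minus strand of chromosome 1. TUB7 (AT2G29550, chr2:12643917-12646057, minus strand) and TUB9 (AT4G20890, chr4:11182092-11184559, plus strand) complete the family. Each coding sequence is split over 3 exons. In coding sequence the closest pair was TUB2 with TUB3, at 97.63% identity. TUB1 was closest to TUB5, at 87.41%, and TUB4 to TUB9, at 87.34%. TUB7 and TUB8 were closest to TUB3, at 84.7% and 83.37%, and TUB6 had no member closer than TUB8, at 80.89%.

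Near-identical stretches limit how reads can be split between TUB2 and TUB3. Of the 50-base windows of the TUB2 transcript, 22.26% occur in the TUB3 transcript, and 22.02% of those of TUB3 occur in TUB2. For the other 7 members, at most 1.83% of such windows occur in a transcript of any other locus. The levels of TUB2 and TUB3 are therefore uncertain against each other, and their sum is given too.

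The levels are RPKM, that is reads scaled for transcript length and for the size of the library. The library totals used as denominators were recovered from the values: 28524534 and 28098772 for the CNT1 libraries, 27065174 and 24436863 for the CNT1-G283E libraries. Each member's values rest on between 2101 and 24472 reads per library. These reads are inferred with lengths fitted to the values, since no annotated length of a member gave whole reads. For TUB9 the fitted length was 1693 bases, against 2180 in the annotated transcript. Shared windows and overlaps of loci are taken from the annotation, so they may not apply in full to the models behind the values. CRY1 was read at 823 and 825 RPKM in CNT1 libraries and 1152 and 1036 RPKM in CNT1-G283E libraries. It was called lower in CNT1, with a log2 fold change of -0.41 ± 0.058 (SE, limma adjusted p = 0.000534). A gene-level value does not separate transgene from endogenous transcript, so it does not check the labels.

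TUB4 was the most abundant member in both groups, followed by TUB6. In CNT1 the order went on with TUB3, TUB5, TUB2, TUB9, TUB7, TUB1 and TUB8, and no neighbours overlapped. In CNT1-G283E it went on with TUB9, TUB5, TUB3, TUB2, TUB8, TUB7 and TUB1, with the ranges of TUB9 and TUB5 overlapping. TUB8 was thus the lowest member in CNT1, while TUB1 was the lowest in CNT1-G283E.

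**Figure D1:**
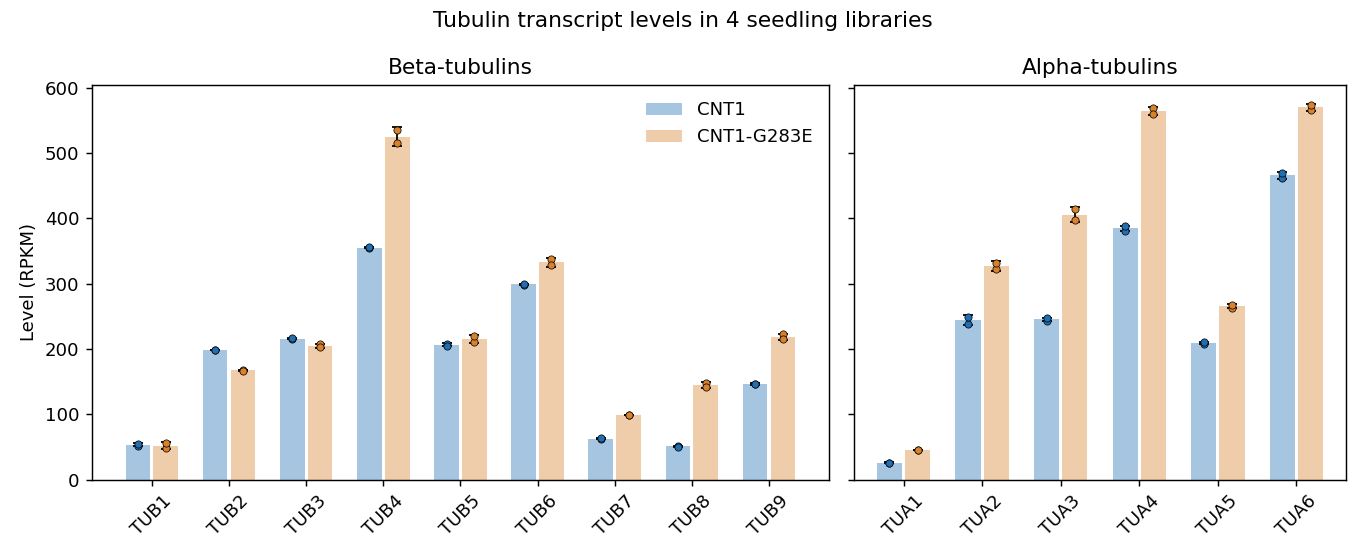
Levels in RPKM of the beta-tubulins (left) and alpha-tubulins (right), with CNT1 in blue and CNT1-G283E in orange. Bars are group means, error bars the SD and points the 2 libraries of a group; TUB8 stands at 50.9 RPKM in CNT1 against 145 in CNT1-G283E, TUB1 at 53.5 against 52.1, and all alpha-tubulins are lower in CNT1.

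Transcripts of 5 members fell in CNT1, those of 1 member rose, and 3 did not pass the test. TUB8 fell most, TUB7, TUB9 and TUB4 fell by similar amounts, and TUB6 by less. TUB2 rose. A call is an adjusted p under 0.05 from limma on log2(RPKM + 1), with all 19201 genes tested. Of all genes tested, 29.0% were called lower, 31.1% higher and 60.0% either way. The 6 of 9 members called either way are near that background, and the 5 of 9 called lower compare with its 29.0%. The median log2 fold change of the 9 was -0.16, beside 0.02 over all genes tested.

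TUB8 had 51.6 and 50.2 RPKM in CNT1 libraries, against 148 and 141 RPKM in CNT1-G283E libraries. The groups were far apart and the replicates close. The mean was 50.9 ± 0.991 RPKM in CNT1 seedlings and 145 ± 5.11 RPKM in CNT1-G283E (2 libraries each, ± SD), a 2.84-fold lower level. The log2 fold change, CNT1 minus CNT1-G283E, was -1.49 ± 0.044 (SE; limma adjusted p = 1.88e-07).

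TUB7 had 62.3 and 63.1 RPKM in CNT1 libraries, against 98.4 and 99.2 RPKM in CNT1-G283E libraries. It fell by 0.65 on the log2 scale (SE 0.039, limma adjusted p = 4.76e-06), a 1.58-fold lower level, with no overlap between the groups. TUB7 lies opposite RPC14, which encodes an RNA polymerase subunit; 414 bases of the loci overlap on opposite strands and whether reads were counted by strand is unstated in the sources used here. RPC14 itself was read at 10.0 and 6.91 RPKM in CNT1 libraries and 5.97 and 7.31 RPKM in CNT1-G283E libraries, far below TUB7.

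TUB4, the most abundant member, had 354 and 356 RPKM in CNT1 libraries, against 535 and 515 RPKM in CNT1-G283E libraries. TUB9, its closest relative in coding sequence, had 147 and 146 RPKM in CNT1 libraries, against 222 and 216 RPKM in CNT1-G283E libraries. In both genes each CNT1 library was below each CNT1-G283E library. The log2 fold changes were -0.56 ± 0.041 for TUB4 and -0.58 ± 0.038 for TUB9 (SE; limma adjusted p = 1.30e-05 and 8.18e-06), 1.48-fold and 1.5-fold lower levels. The TUB9 locus overlaps MS5 on the opposite strand, and MS5 was read at 0.0526 RPKM or less in every library. TUB9 was read at this level in seedlings in which most pollen markers were close to 0. VGD1, a pectin methylesterase of pollen tubes, was at 0.0158 RPKM in CNT1 replicate 1 and at 0 in the other libraries, and the 8 pollen markers summed to between 3.87 and 3.89 RPKM in CNT1 seedlings and between 3.43 and 3.92 RPKM in CNT1-G283E. Of these 8, 2 passed the filter, and AGP6 was called higher and PRF4 lower in CNT1.

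The TUB6 locus overlaps AT5G12240 on the same strand over 83 bases, and that gene was read at 26.3 to 31.7 RPKM. TUB6 itself had 299 RPKM in both CNT1 libraries, against 338 and 328 RPKM in CNT1-G283E libraries. The groups did not overlap, but the difference was small, at -0.16 ± 0.039 (log2, SE; limma adjusted p = 0.00949), a 1.11-fold lower level. The call was lost in limma without the intensity trend (adjusted p = 0.0587). It was also lost with either CNT1 library left out, which leaves 1 library in that group. The log2 fold change was then -0.155 without CNT1 replicate 1 and -0.156 without CNT1 replicate 2.

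TUB2 was the member that rose. It had 198 and 199 RPKM in CNT1 libraries, against 168 and 167 RPKM in CNT1-G283E libraries, a 1.19-fold higher level. The log2 fold change was 0.24 ± 0.037 (SE; limma adjusted p = 0.00074). Its neighbour TUB3 had 215 and 217 RPKM in CNT1 libraries, against 207 and 203 RPKM in CNT1-G283E libraries. TUB3 also lay higher in both CNT1 libraries, but the difference of 0.08 (95% interval -0.01 to 0.16) did not pass the test (limma adjusted p = 0.12). The sum of both genes was 414 and 416 RPKM in CNT1 libraries and 376 and 370 RPKM in CNT1-G283E libraries. Fitted as 1 row, the sum rose by 0.15 on the log2 scale (limma adjusted p = 0.00931), with TUB2 holding the larger part of the difference in RPKM. The ratio of TUB2 to TUB3 was 0.922 and 0.917 in CNT1 libraries, against 0.812 and 0.822 in CNT1-G283E libraries.

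TUB1, the member known to fall in light, had 52.1 and 55.0 RPKM in CNT1 libraries, against 47.9 and 56.2 RPKM in CNT1-G283E libraries. The groups overlapped, with the CNT1-G283E libraries holding both the lowest and the highest value. The difference was 0.04 (95% interval -0.13 to 0.21, limma adjusted p = 0.647). Its interval overlapped those of TUB6 (-0.25 to -0.07) and TUB2 (0.16 to 0.33), and differences between members were not tested. The TUB1 value depends on the spread within CNT1-G283E: it was at 0.15 without CNT1-G283E replicate 2 and at -0.070 without CNT1-G283E replicate 1. The TUB1 locus overlaps AT1G75785 on the opposite strand over 639 bases. That gene has no value among the gene models used here, so its part in the TUB1 reads cannot be checked.

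TUB5, the closest relative of TUB1 in coding sequence, had 208 and 205 RPKM in CNT1 libraries, against 211 and 219 RPKM in CNT1-G283E libraries. The groups did not overlap, yet the difference of -0.06 (95% interval -0.15 to 0.03) did not pass the test (limma adjusted p = 0.235). In all, the groups did not overlap for 8 of 9 members, 2 higher and 6 lower in CNT1; over all genes tested, 80.9% did not overlap, 42.9% higher and 38.1% lower.

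**Figure D2:**
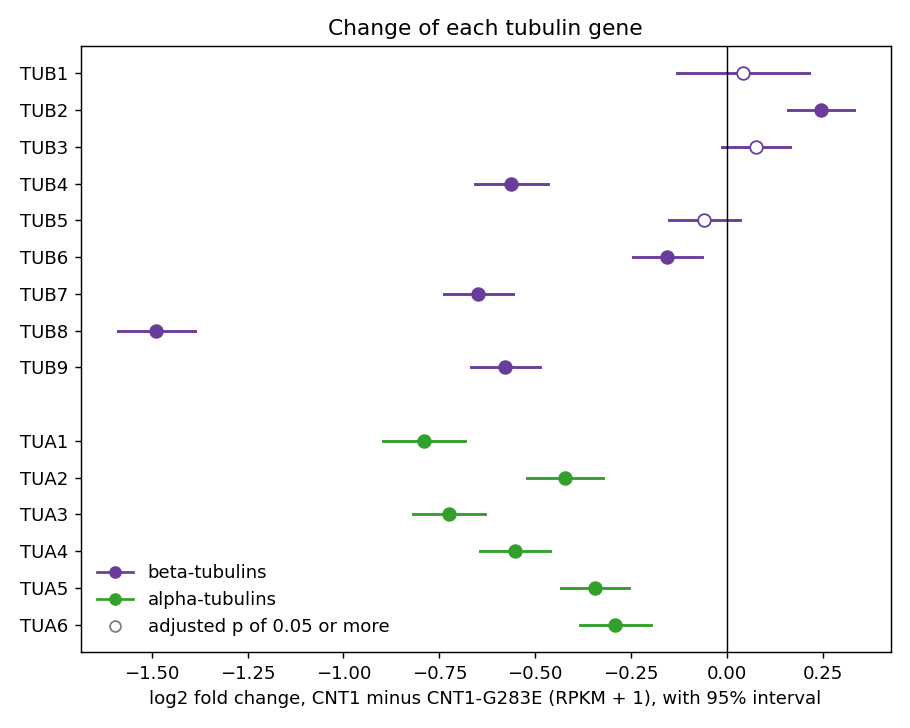
Log2 fold change, CNT1 minus CNT1-G283E, of each beta-tubulin (purple) and alpha-tubulin (green) on the log2(RPKM + 1) scale, with its 95% interval as a line; open circles did not pass an adjusted p of 0.05. TUB8 lies at -1.49, TUB4, TUB7 and TUB9 between -0.65 and -0.56, and TUB1, TUB3 and TUB5 near 0.

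The makeup of the beta-tubulin pool differed with these changes. Summed over the 9 genes, the level was 1588 and 1590.1 RPKM in CNT1 libraries and 1977 and 1944 RPKM in CNT1-G283E libraries, a ratio of 0.81. The 5 members called lower held 57.5% ± 0.0592 of the sum in CNT1 and 67.4% ± 0.762 in CNT1-G283E (2 libraries each, ± SD), a description with no test, since those members were picked by their fall. TUB8 made up 3.21% ± 0.0656 of the pool in CNT1 and 7.38% ± 0.174 in CNT1-G283E. TUB2 made up 12.5% ± 0.0131 in CNT1 and 8.54% ± 0.0444 in CNT1-G283E, and TUB4 22.4% ± 0.0535 in CNT1 and 26.8% ± 0.422 in CNT1-G283E. In summed level, the 5 members called lower came to 914 RPKM in both CNT1 libraries and to 1342 and 1299 RPKM in CNT1-G283E libraries, while the other 4 came to 674 and 676 RPKM in CNT1 seedlings and 635 and 645 RPKM in CNT1-G283E.

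**Figure D3:**
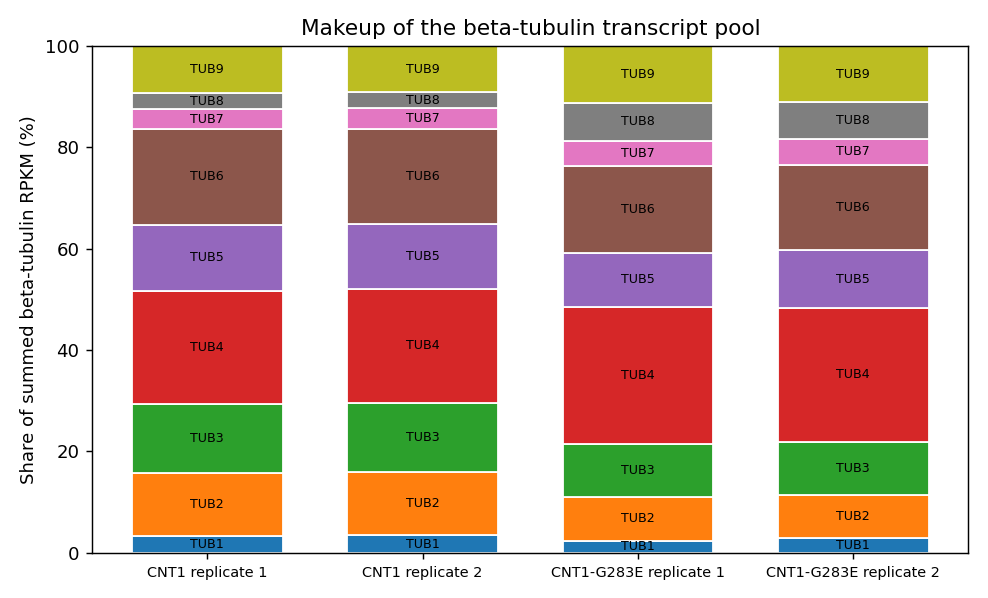
Share of each beta-tubulin in the summed beta-tubulin RPKM (percent), 1 bar per library, CNT1 libraries on the left. TUB8 narrows to 3.21% in CNT1 against 7.38% in CNT1-G283E, and TUB2 widens to 12.5% against 8.54%.

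Upstream sequence is shown for the pair in which 1 gene rose and for the member that fell most. The lines give 250 bases before the annotated transcript start on the gene's strand (RefSeq TAIR10.1), with matches to the motifs searched in capitals.
TUB2: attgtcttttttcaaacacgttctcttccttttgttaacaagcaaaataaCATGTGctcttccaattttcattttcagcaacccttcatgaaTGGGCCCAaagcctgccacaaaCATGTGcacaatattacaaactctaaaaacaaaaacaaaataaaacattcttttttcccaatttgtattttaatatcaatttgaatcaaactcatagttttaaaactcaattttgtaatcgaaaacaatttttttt
TUB3: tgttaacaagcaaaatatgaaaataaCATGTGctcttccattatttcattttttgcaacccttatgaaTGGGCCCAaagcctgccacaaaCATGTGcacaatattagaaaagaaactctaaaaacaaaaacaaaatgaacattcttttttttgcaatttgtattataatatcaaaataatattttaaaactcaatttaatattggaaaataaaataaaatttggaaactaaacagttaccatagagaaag
TUB8: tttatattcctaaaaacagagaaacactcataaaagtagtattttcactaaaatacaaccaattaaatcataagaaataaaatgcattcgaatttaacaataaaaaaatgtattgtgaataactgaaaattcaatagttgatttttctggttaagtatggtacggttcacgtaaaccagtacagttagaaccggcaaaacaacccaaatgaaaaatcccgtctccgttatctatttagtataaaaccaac
These windows are chr5:25181046-25181295 for TUB2, chr5:25184008-25184257 for TUB3 and chr5:8042603-8042852 for TUB8, all on the plus strand. The windows of TUB2 and TUB3 were 67.51% identical in a global alignment, against 44.03% to 50.75% for the other pairs of members. Both hold 2 copies of the PIF-binding E-box CACATG (read as CATGTG on this strand) around a palindrome in which the site II element TGGGCC and its reverse complement GGCCCA overlap. The E-boxes begin at -200 and -136 in TUB2 and at -224 and -160 in TUB3, counted from the transcript start, and the site II match begins at -158 in TUB2 and at -182 in TUB3. Over both strands, CACATG occurs in 10.6% and TGGGCC in 12.45% of the 31289 windows of this length before annotated genes. Among the members CACATG also occurs in TUB6, which fell, and TGGGCC in TUB5, which was not called.

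The other motifs searched, on both strands, were the G-box CACGTG, the auxin response element TGTCTC, the brassinosteroid response element CGTGTG, the telo-box AAACCCTAA and the I-box core GATAAG. TUB7 holds the G-box and CGTGTG, found in 6.0% and 5.16% of all windows, and TUB6 holds GATAAG, found in 12.8%. TGTCTC (11.1% of windows) and AAACCCTAA (2.95%) were in none of the 9 windows, and those of TUB1, TUB4, TUB8 and TUB9 held no match to any of the 7 motifs. A match here is a match of letters only.

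The alpha-tubulins, the partner subunits of the dimer, all fell. All 6 were called lower, beside 29.0% of all genes tested, and the median log2 fold change was -0.49. TUA1 had 26.2 and 25.6 RPKM in CNT1 libraries, against 45.7 and 45.3 RPKM in CNT1-G283E libraries, and fell by 0.79 (log2, SE 0.046). TUA3 had 244 and 247 RPKM in CNT1 libraries, against 398 and 414 RPKM in CNT1-G283E libraries, and fell by 0.72 (SE 0.040). TUA4, with 381 and 388 RPKM in CNT1 libraries against 569 and 560 RPKM in CNT1-G283E libraries, fell by 0.55 (SE 0.039). TUA2, TUA5 and TUA6 fell by 0.42, 0.34 and 0.29. No alpha-tubulin fell as far as TUB8, and none stood near 0 as TUB1, TUB3 and TUB5 did. TUA3 and TUA5 share 31.96% and 35.36% of their 50-base windows with each other. TUA4, TUA6 and TUA2 share 18.37%, 11.76% and 10.49% of theirs with transcripts of other loci, and TUA1 shares none. The split of reads is therefore uncertain between TUA3 and TUA5 and among TUA2, TUA4 and TUA6.

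Summed alpha-tubulin was 1560 and 1590 RPKM in CNT1 libraries and 2164 and 2194 RPKM in CNT1-G283E libraries, a ratio of 0.723 beside 0.81 for beta-tubulin. The ratio of summed beta to summed alpha RPKM was 1.02 and 1.00 in CNT1 libraries and 0.913 and 0.886 in CNT1-G283E libraries.

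Other genes of the microtubule cytoskeleton were called in shares near those over all genes tested, 31.1% higher, 29.0% lower and 60.0% either way. Of 55 tested in 5 lists, 16 rose, 19 fell and 20 did not pass, and the median log2 fold change was 0.05. Among the 45 of them with a mean of at least 5 RPKM, 16 were higher and 11 lower. Over all genes with that mean, 9237 of 14404 were called either way, and shares by direction are not given for that filter. Of 7 nucleation genes, 4 rose and none fell, beside 31.1% higher and 29.0% lower over all genes tested. GIP1, a small protein of the gamma-tubulin complex, had 14.8 and 14.9 RPKM in CNT1 libraries, against 9.02 and 8.43 RPKM in CNT1-G283E libraries, a 1.70-fold higher level, and GCP4, a complex subunit, was also 1.70-fold and the gamma-tubulin gene TUBG2 1.37-fold higher. Of 10 genes of tubulin folding, 5 rose and 1 fell, and the 6 called either way equal the 60.0% over all genes tested. ARL2, a small GTPase of tubulin folding, rose 1.86-fold, with 23.5 and 21.8 RPKM in CNT1 libraries against 11.4 and 12.9 RPKM in CNT1-G283E libraries, and the prefoldin subunits PFD1 and PFD5 rose 1.26-fold and 1.14-fold, while PFD6 was 1.13-fold lower. Of 8 subunits of augmin, which starts new microtubules on existing ones, AUG4 and AUG8 rose (1.36-fold and 1.20-fold) and AUG3 fell (1.18-fold lower). The other 5 did not pass, a lower share called than the 60.0% over all genes tested.

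Genes of microtubule-associated proteins were split by gene. Of 23 tested, 5 rose, 11 fell and 7 did not pass, beside 31.1% higher, 29.0% lower and 60.0% either way over all genes tested. The share called lower was above that over all genes and the share called higher below it, with no set test. WDL3, a microtubule-binding protein that limits hypocotyl elongation in light, had 9.22 and 11.0 RPKM in CNT1 libraries, against 31.0 and 37.8 RPKM in CNT1-G283E libraries, a 3.40-fold lower level. MAP65-4, a microtubule bundler, was 2.74-fold lower and MDP25, a microtubule-destabilising protein of the plasma membrane, 2.49-fold lower. The bundlers MAP65-1 and MAP65-2 rose, 1.46-fold and 1.5-fold, and SPR1, which keeps cell expansion straight, 1.18-fold. Of 7 genes of mitotic kinesins and the spindle, 6 fell and none rose, beside 29.0% called lower over all genes tested. All 7 were low, with a mean below 5 RPKM over the libraries. The kinesin gene ATK5 had 2.75 and 2.87 RPKM in CNT1 libraries, against 6.61 and 6.70 RPKM in CNT1-G283E libraries, a 2.36-fold lower level. The kinesin gene ATK1 was 1.89-fold lower and TPX2, a spindle assembly factor, 1.78-fold lower.

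**Figure D4:**
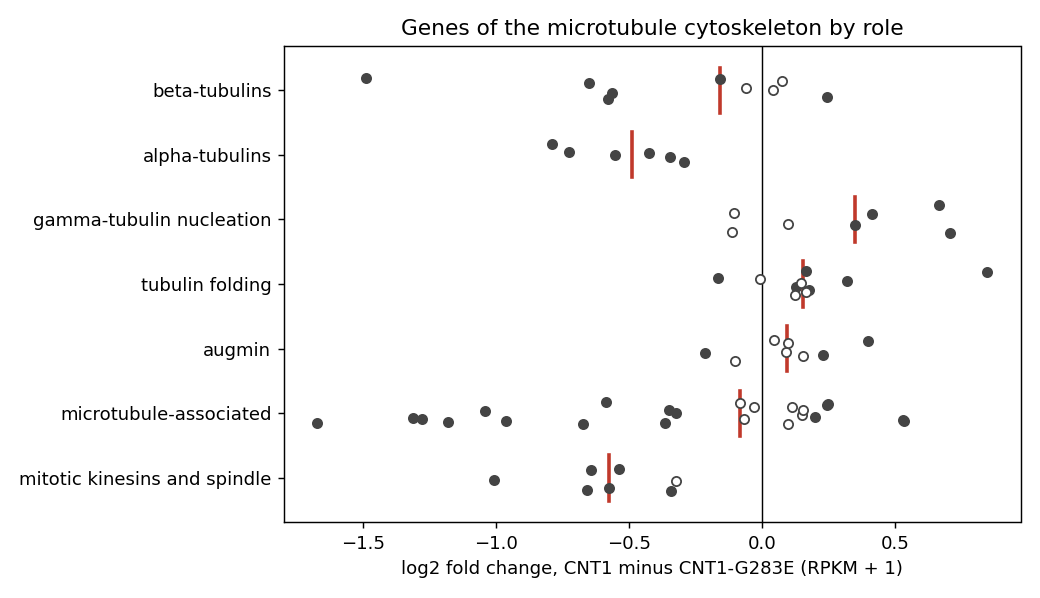
Log2 fold change, CNT1 minus CNT1-G283E (RPKM + 1), of each tested gene of the beta-tubulins, alpha-tubulins and 5 further microtubule lists; filled points passed an adjusted p of 0.05, open points did not, and red lines are list medians. Alpha-tubulins (median -0.49) and spindle genes (median -0.57) lie left of 0 and nucleation genes (median 0.35) mostly to the right.

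Markers of several tissues moved in the same libraries as the tubulins. Their counts stand beside 29.0% of all genes tested called lower and 31.1% called higher. Of 10 markers of dividing cells, 8 fell, and their summed level was 56.3 to 56.8 RPKM in CNT1 seedlings and 113 to 116 RPKM in CNT1-G283E. All 8 xylem markers fell (197 to 201 RPKM summed in CNT1, 366 to 386 in CNT1-G283E), as did all 3 phloem markers (78.4 to 80.4 RPKM in CNT1, 132 to 147 in CNT1-G283E). Of 9 tested root markers 4 fell and none rose (240 to 242 RPKM in CNT1, 576 to 647 in CNT1-G283E, over 11 markers, with NRT2.1 and SMB below the filter). CASP1, CASP2, TIP2;3 and PHO1 fell and hold most of that sum, while RHD6, COBL9, EXPA7, EXPA18 and PRP3 did not pass, with log2 fold changes between -0.41 and 0.08. All 5 green-tissue markers rose (26404 to 26566 RPKM in CNT1, 6504 to 6606 in CNT1-G283E). Their part in the tubulin values was not tested, and in whole seedlings fewer cells of a type and less RNA per cell cannot be told apart.

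By the distance between centred log2(RPKM + 1) values over the 4 libraries, the gene likest to TUB1 among 14403 others with a mean of at least 5 RPKM was AT4G27240, at a distance of 0.0176, followed by AT5G15980 at 0.0179, AT5G11020 at 0.0228, AT4G26240 at 0.0258 and UNE11 at 0.0261. These genes were picked for a profile like that of TUB1, so their order of libraries and the size of their group difference are set by the choice.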

How the data were processed

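Poly(A) RNA of 2 CNT1 and 2 CNT1-G283E seedling libraries was sequenced, per the labels' protocols. Bowtie2 2.2.2 and TAIR10 are named in the submitters' processing notes; how reads were assigned, multiple matches treated and strand used is unstated in the sources used here. RPKM values were deposited by the authors for 27416 gene models per library, per the file headers. The planned test for normalized values was used: limma 3.58.1 (R 4.3.3) on log2(RPKM + 1), with an intensity trend, over the 19201 genes that reached 1 RPKM in 2 or more libraries, and Benjamini-Hochberg adjustment over all of them. This scale understates changes of low genes. Fold values are ratios of group mean RPKM.

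Depths were recovered as the whole-number denominators that most low values shared; with them 24359 of 24360 rows above 0 gave whole reads within 0.001, of which 4934 at an annotated and 19425 at a fitted length. Recovered reads summed to 102.9% to 103.2% of the denominators, and the reason for this excess was not tested. Replicates differed by more than counting noise, the chi-square over its degrees of freedom being 1.81 in CNT1 and 4.68 in CNT1-G283E.

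The members and lists were chosen with earlier results of these data known. Of 71 genes written in the microtubule lists beside beta-tubulin, 8 were dropped as names the annotation table lacks. All beta- and alpha-tubulins were named, up to 3 called genes per direction of each other list by adjusted p, and the 5 genes likest to TUB1; not all are printed. Sequences came from the RefSeq TAIR10.1 genome, the assembly of TAIR10, with Biopython 1.88 for alignments. The limma step was also run on simulated data with few changed genes and the same noise in both groups. The data here differ in both respects, so that run does not check the calls. Alternatives were other scalings, filters and a pseudocount of 0.1, limma without the trend, limma-voom on recovered reads, a replicate block, leaving out each library or the 20 most abundant genes, and TUB2 and TUB3 summed.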

Additional observations from a re-analysis of the deposited data

How the results depend on the processing

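TUB2, TUB4, TUB7, TUB8 and TUB9 and all 6 alpha-tubulins kept their direction under each alternative run. They kept their call in each run with 2 libraries a group. The scalings moved the median of all genes by less than 0.1 (log2). The TUB8 log2 fold change lay between -1.52 and -1.45 with 1 library left out. Leaving out a library leaves 1 in its group, so effect sizes are given rather than counts. TUB4 ranged from -0.59 to -0.53, TUB7 from -0.66 to -0.64 and TUB9 from -0.60 to -0.56. TUB6 ranged from -0.18 to -0.13, TUB5 from -0.09 to -0.03, TUB3 from 0.06 to 0.09 and TUB2 from 0.24 to 0.25. TUB1 changed sign, from -0.070 to 0.15. Among the alpha-tubulins, TUA1 ranged from -0.81 to -0.77 and TUA6 from -0.30 to -0.28. With a mean of at least 5 RPKM, 45 genes of the other lists were tested, of which 16 were higher and 11 lower, against 16 and 19 of 55 as reported. That filter called 9237 of 14404 genes over all, against 11530 of 19201 as reported. The summed beta-tubulin difference was -372 RPKM as deposited, -396 with upper-quartile and -404 with median-of-ratios scaling. With the replicate block 5 beta-tubulins were lower and 1 higher, and 11214 genes were called over all; deviations of same-numbered libraries correlated at -0.05, so the numbers are not shown to pair the libraries. With 2 libraries a group, the spread rests largely on that shared over genes.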
